A study of Mus musculus with 6 samples.

Results

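Costimulatory receptors and ligands were examined in the kidney through 10 genes, namely Cd28, Icos, Icosl, Cd80, Cd86, Cd40, Cd40lg, Tnfrsf4, Tnfsf8 and Tnfrsf9. A probe was included if it was not a control and the array annotation gave it the name of one of these genes. The array held 21 such probes for the 10 genes, among 56605 probes with 36870 gene names. TA was performed with 1 single-colour Agilent array per mouse on the whole kidneys of 3 female MRL/MpJ mice (MRL mice) and 3 female MRL/MpJ-Fas lpr/lpr mice (LPR mice), all 6 months of age. Both groups shared the MRL/MpJ background, which is itself prone to mild autoimmunity with age. The LPR mice were in addition homozygous for lpr, a mutation of the death receptor gene Fas that is present in all cells and is not driven from a chosen promoter. The study used LPR mice as a model of lupus nephritis to look for molecules that accompany lymphoid tissue around renal vessels. Its text or heatmaps for these same arrays name Icos, Cd40 and Cd86, so the direction of these genes here is not independent evidence.

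A naive T cell needs a further signal beside its antigen receptor, and costimulatory molecules give it. CD28 on the T cell binds CD80 and CD86 on an antigen-presenting cell, and ICOS, which appears on activated T cells and marks follicular helper cells, binds ICOS ligand. CD40 ligand on helper T cells engages CD40 on B cells, dendritic cells and macrophages, while OX40 (Tnfrsf4), CD137 (Tnfrsf9) and CD30 ligand (Tnfsf8) belong to the tumour necrosis factor superfamily and act later in the response. Most of these molecules are carried by leukocytes, which are few in the healthy kidney and infiltrate it in nephritis.

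Signals are given as log2 intensity relative to the 75th percentile of each array, which was between 706 and 942 intensity units. The share of spots flagged as well above background was 69.6% to 70.6% in MRL mice and 70.7% to 73.5% in LPR mice. The 6 arrays correlated at 0.990 to 0.993 within a group and at 0.961 to 0.971 between groups. The 6 tubule markers Lrp2, Slc34a1, Umod, Slc12a1, Slc12a3 and Aqp2 were above background on every array. Fas was measured by 2 probes that disagreed. The brighter one (A_55_P2091676) was -0.37, -0.28 and -0.06 in MRL 1 to 3 and -0.49, -1.25 and -0.37 in LPR 1 to 3, a change of -0.47 that did not pass (limma, adjusted p = 0.234). The other (A_52_P73385) was above background on 0 of 3 MRL arrays and 3 of 3 LPR arrays, a rise of at least 1.47-fold (adjusted p = 0.0338) whose call was lost under 12 of 20 alternatives, among them the detection limit in place of lower signals. The place of the mutation relative to these probes was not examined, so they are no check of the labels.

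Each probe was 60 bases long and lay on the array as 1 spot. Of the 10 genes, 3 had 1 probe and 7 had several, with 4 each for Cd80 and Cd86. The probes of 1 gene read different stretches of its transcripts, and for Cd80 and Icosl the result differed with the probe. Those of Cd80 lay up to 21454 bases apart on chromosome 16 and those of Icosl 7103 bases apart on chromosome 10 (mm9, NCBI build 37). Their sequences are therefore shown first, 5′ to 3′, whole or as the first 30 bases. The Cd80 probe A_55_P2001218 lay at chr16:38486772-38486831, A_52_P244005 at chr16:38474174-38474233 and A_66_P130432 at chr16:38479343-38479402. The Icosl probe A_55_P2747083 lay at chr10:77541662-77541721 and A_52_P432647 at chr10:77534559-77534618. All of these lay on the plus strand.
Cd80 A_55_P2001218: aaaggagaggtgcctagtcttactgcaact
Cd80 A_52_P244005: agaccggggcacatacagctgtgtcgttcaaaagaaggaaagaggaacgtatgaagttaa
Cd80 A_66_P130432: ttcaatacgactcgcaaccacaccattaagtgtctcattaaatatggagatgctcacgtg
Icosl A_55_P2747083: aatgagtgtagagagaactacttaagtcct
Icosl A_52_P432647: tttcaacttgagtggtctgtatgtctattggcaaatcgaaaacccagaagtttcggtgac

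The probes that carried the main rises of Cd28, Cd86, Tnfrsf4 and Icos are shown as well. Those of Cd28, Cd86 and Tnfrsf4 held the polyadenylation hexamer AATAAA, in capitals within the 30 of their 60 bases that are given. They were the Cd28 probe A_55_P1979491 at chr1:60830144-60830203 on the plus strand, the Cd86 probe A_55_P1971951 at chr16:36603961-36604020 on the minus strand and the Tnfrsf4 probe A_55_P2125491 at chr4:155390639-155390698 on the plus strand. The Icos probe A_52_P682768 at chr1:61057071-61057130 on the plus strand is shown by its first 30 bases, and the Cd86 probe A_51_P174723 at chr16:36615381-36615440 on the minus strand is shown whole because no MRL array detected it.
Cd28 A_55_P1979491: tgcttagcctgcAATAAAtatttattcatt
Cd86 A_55_P1971951: agagtggatttcAATAAAgttttcttgaat
Tnfrsf4 A_55_P2125491: tgcctggtggtgctcctAATAAAcatgcta
Icos A_52_P682768: taactgccagtgtttgttttcatctcctgt
Cd86 A_51_P174723: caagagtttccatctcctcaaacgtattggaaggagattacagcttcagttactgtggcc
The hexamer was found in 4 of the 21 probes (19.0%), against 9.8% of all 56605 probes, and its reverse complement in 1 of the 21 (4.8%), against 3.8%. A match of these letters is a description of the probe and no evidence of a used site. An exon or UTR placement was not analysed here.

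Costimulatory transcripts were higher in the kidneys of LPR mice for 8 of the 9 genes with a tested probe, by the brightest one. The other of the 10 genes, Cd40lg, had no tested probe. Over all 25805 tested genes this share was 7.12%. The genes were chosen with earlier results of these data known, so this count is not independent evidence. Of the 8, Icosl passed narrowly (limma, adjusted p = 0.0484) and lost its call when any 1 mouse was left out. Of the 21 probes, 18 were detected above background in 3 or more mice and could be tested. LPR mice were higher for 14 of these (limma, Benjamini-Hochberg adjusted p under 0.05), where 6.53% of all 39924 tested probes were higher. The 14 include 5 probes with no MRL array above background, which could enter the test only if they were higher in LPR mice. Both Tnfrsf9 probes are among those 5. No probe was lower by limma, at an unadjusted p under 0.05 or by either form of the methods' t-test, where 6.17% of all tested probes were lower. In the fit the largest rises were those of Icos, Cd86, Tnfsf8, Tnfrsf9 and Cd28. Those of Cd86, Tnfsf8 and Tnfrsf9 were read on probes with no MRL array above background, so their rank rests on undetected MRL signals. On their brightest probes Cd86 rose by 2.47 and Tnfsf8 by 1.45, against 3.26 for Cd28. The smallest called rises were those of Cd40 and Icosl. Cd80 did not pass in this fit and Cd40lg was not measured above background. The median change of the 18 tested probes, including the 5 with no MRL array above background, was 2.10, from -0.25 to 3.97. That of all tested probes was -0.14. In whole kidney, more cells that carry a transcript and more transcript per cell cannot be told apart.

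**Figure D1:**
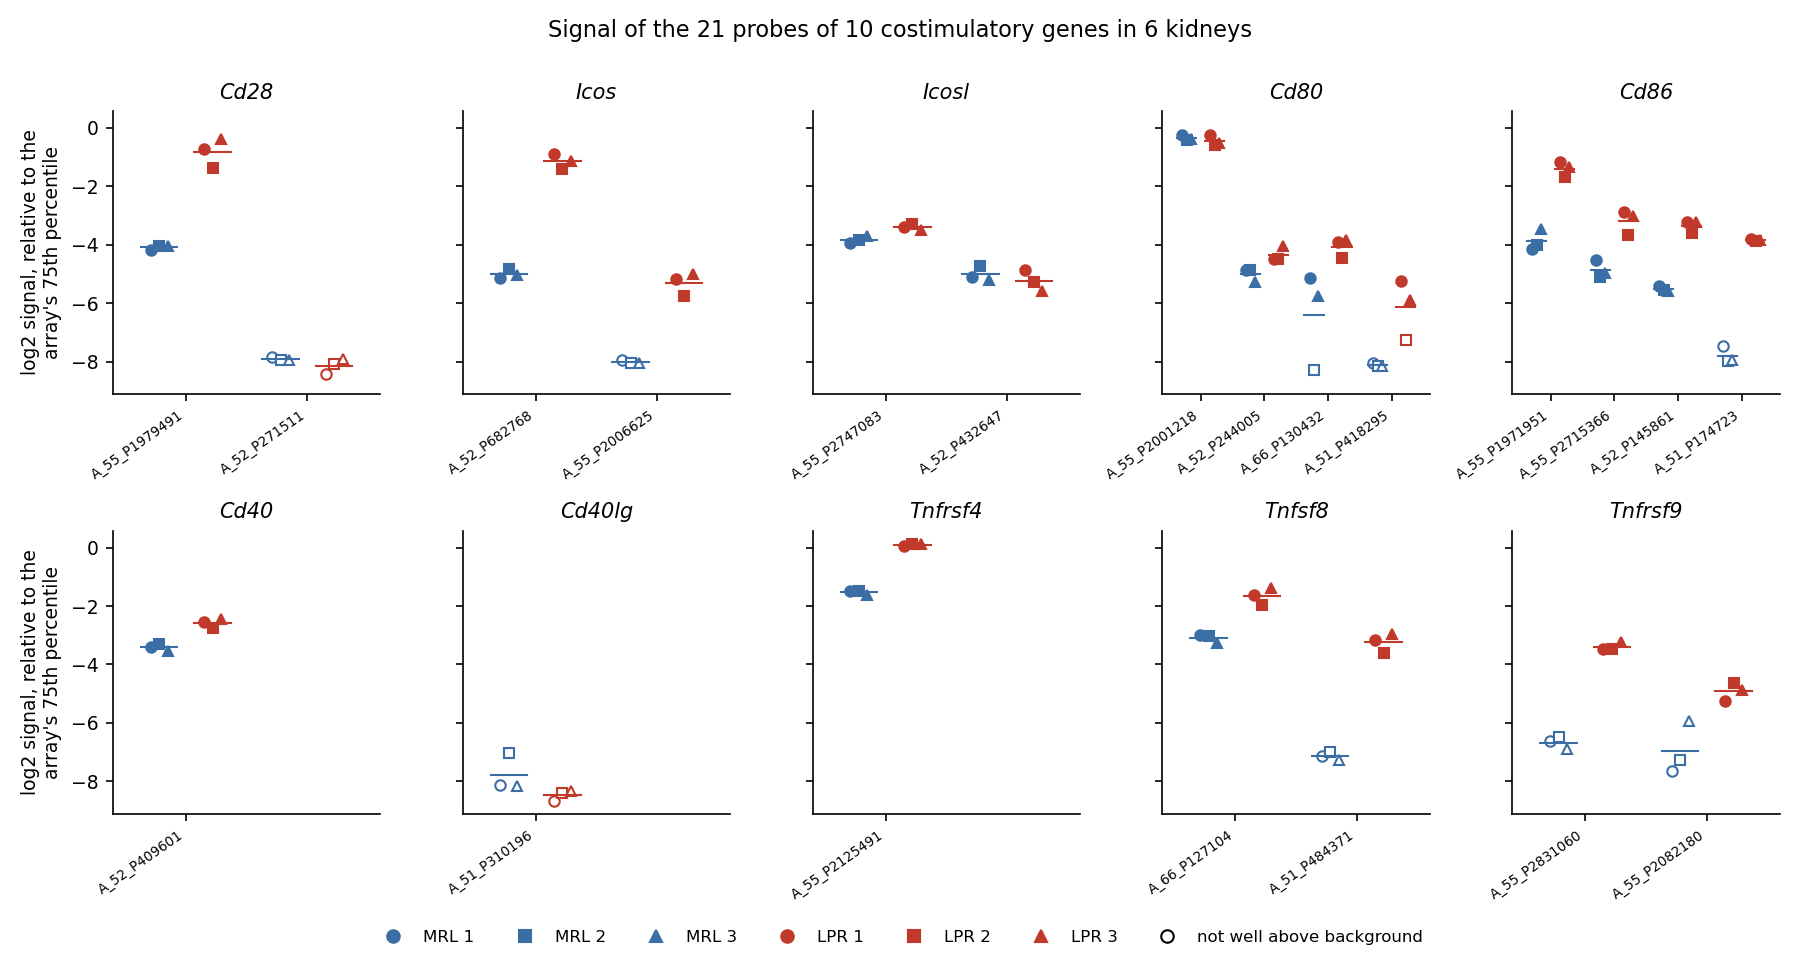
Signal of each probe in each mouse, as log2 intensity relative to the 75th percentile of the array (y axis), with 1 panel per gene and the probes of a gene side by side (x axis). Points are mice, short lines are group means, and open symbols are spots not well above background. MRL and LPR mice were apart for Cd28 A_55_P1979491, both Icos probes and all 4 Cd86 probes, whereas they overlapped for the brightest Cd80 probe.

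The groups did not overlap, with all LPR mice above all MRL mice, for 16 of the 18 tested probes, against 11.0% of all tested probes. The exceptions were the brightest Cd80 probe and Icosl A_52_P432647. Because 5 of the 18 were tested only through the LPR arrays, with no MRL array above background, they could pass the filter only if they were higher in LPR mice. Their rises are stated as lower bounds, written as at least throughout. A bound is the LPR mean over the MRL mean after MRL signals under the detection limit of their array were set to it. That limit is the lowest signal flagged as above background, and unflagged signals can lie above it. The bounds hold only for this limit and these background-subtracted signals. With normexp background correction, which adds an offset, all 5 folds were smaller. They were 1.64 for Cd86 A_51_P174723, 2.08 for Tnfsf8 A_51_P484371 and 1.90 for Tnfrsf9 A_55_P2831060. The adjusted p beside a bound is that of the fit to the signals as measured. With the limit in place of lower signals 4 of these 5 probes passed as well, and Icos A_55_P2006625 did not (adjusted p = 0.0707). Of the 18 tested probes, 12 were above background on all 6 arrays.

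**Figure D2:**
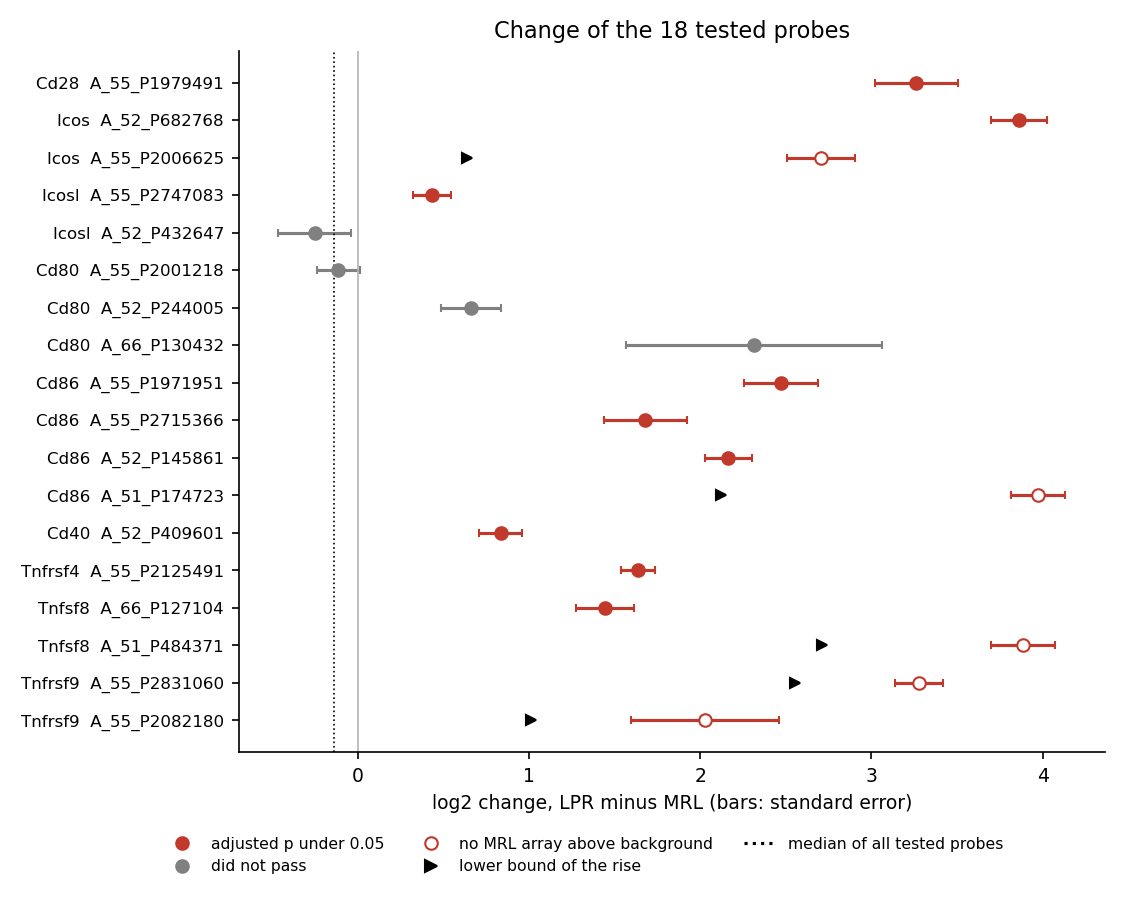
log2 change, LPR minus MRL (x axis), of the 18 tested probes (y axis), with bars for the standard error of limma. Filled red points passed, grey points did not, open points had no MRL array above background, and the triangle is then the lower bound of the rise. The dotted line is the median of all tested probes, -0.14, and only Icosl A_52_P432647 and Cd80 A_55_P2001218 lay below 0.

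Cd28 and Icos, receptors on T cells, both rose. CD28 is the receptor that primes naive T cells. Its probe A_55_P1979491 was -4.18, -4.03 and -4.04 in MRL 1 to 3 and -0.74, -1.36 and -0.36 in LPR 1 to 3. All MRL mice lay close together and far below the LPR mice, of which LPR 2 was the lowest. The change was 3.26 (SE 0.24), or 9.60-fold (limma, adjusted p = 0.000257). The other Cd28 probe, A_52_P271511, whose target was annotated with another transcript, was above background on 0 of 6 arrays and was not tested.

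Icos, the receptor that sustains follicular helper T cells, gave the largest rise among the probes detected in both groups. Its probe A_52_P682768 was -5.15, -4.85 and -5.03 in the MRL mice and -0.88, -1.42 and -1.13 in the LPR mice. The groups were widely apart and LPR 2 was again the lowest LPR mouse. The change was 3.86 (SE 0.16; 95% interval 3.47 to 4.25; adjusted p = 2.54e-05). The second probe, A_55_P2006625, was above background on 0 of 3 MRL arrays and was -5.19, -5.76 and -5.00 in the LPR mice, a rise of at least 1.56-fold (adjusted p = 0.000247). This call was lost with the limit in place of lower signals (adjusted p = 0.0707), with normexp background correction (0.0558) and with the methods' t-test on linear values (0.0564).

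The probes of the ligands on antigen-presenting cells did not all give the same call. Cd86, the ligand of CD28 that is present early on dendritic cells and macrophages, rose on all 4 of its probes. The brightest, A_55_P1971951, was -4.14, -4.00 and -3.47 in the MRL mice and -1.15, -1.69 and -1.34 in the LPR mice. No MRL mouse reached the lowest LPR mouse. This probe rose by 2.47 (SE 0.22), or 5.55-fold (limma, adjusted p = 0.000549). A_52_P145861 rose 4.48-fold (adjusted p = 0.000131) and A_55_P2715366 rose 3.20-fold (adjusted p = 0.00577). The fourth, A_51_P174723, was above background on 0 of 3 MRL arrays and was -3.81, -3.86 and -3.82 in the LPR mice, with an SD of only 0.03. Its rise was at least 4.35-fold (adjusted p = 1.98e-05). The 4 Cd86 probes were spread over 56899 bases of chromosome 16 and all rose.

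Cd80, the other ligand of CD28 and CTLA-4, did not pass on any of its 3 tested probes, but they gave different values and the dimmer ones passed under some alternatives. The brightest, A_55_P2001218, was -0.23, -0.41 and -0.37 in the MRL mice and -0.25, -0.58 and -0.51 in the LPR mice. The mice of both groups were interleaved. The change was -0.11, with a 95% interval of -0.41 to 0.18 (limma, adjusted p = 0.572), an interval that does not hold the rise of 2.47 read for Cd86. The dimmer A_52_P244005 was -4.87, -4.88 and -5.27 against -4.50, -4.48 and -4.05. Here every LPR mouse lay above every MRL mouse, and the change of 0.66 (95% interval 0.25 to 1.08) was just over the threshold (adjusted p = 0.0533). It passed under 4 of 21 alternatives, with quantile normalization at an adjusted p of 0.0390.

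The remaining Cd80 probes were close to background. A_66_P130432 was -5.14, -8.28 and -5.76 in the MRL mice and -3.92, -4.45 and -3.86 in the LPR mice, with MRL 2 not above background. MRL 2 stood far below the other MRL mice, so that the fitted change of 2.31, which rests in part on a signal under background, had an SE of 0.75 and did not pass (adjusted p = 0.0917). With the limit in place of that signal the change was 1.56 and passed (adjusted p = 0.00717). It also passed without MRL 2 (1.37; adjusted p = 0.0316), with normexp correction (0.50; 0.0177) and with an intensity trend in limma (2.31; 0.0491). A_51_P418295 was above background on 0 of 3 MRL arrays and 2 of 3 LPR arrays and was not tested. Cd80 thus gave no rise on its brightest probe and higher values in all LPR mice on the dimmer ones, a difference between probes whose source was not tested.

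Icosl, the ligand of ICOS on B cells and other antigen-presenting cells, was likewise measured by 2 probes that differed. A_55_P2747083 was -3.93, -3.84 and -3.72 in the MRL mice and -3.38, -3.30 and -3.50 in the LPR mice. The groups were close but did not overlap. The change was 0.43 (SE 0.11), or 1.35-fold, and was just under the threshold (limma, adjusted p = 0.0484). Under leaving out any 1 of the 6 mice it did not pass, with adjusted p between 0.0833 and 0.142. A_52_P432647 was -5.09, -4.72 and -5.19 against -4.88, -5.27 and -5.60. These groups overlapped, and the change of -0.25 (95% interval -0.76 to 0.26) did not pass (adjusted p = 0.459).

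Cd40, the receptor through which helper T cells license B cells and dendritic cells, rose less than most of the set. Its only probe, A_52_P409601, was -3.41, -3.29 and -3.55 in the MRL mice and -2.54, -2.75 and -2.46 in the LPR mice. The groups did not overlap, and the spread within each was small. The rise was 0.84 (SE 0.13; limma, adjusted p = 0.00723). With the slide row of each array in the fit the adjusted p was 0.0646, and with the slide column it was 0.0679. Cd40lg, the ligand on activated helper T cells, was above background on 0 of 6 arrays by its only probe, A_51_P310196. No comparison of it was possible, and the probe gives no level for either group.

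Tnfrsf4, Tnfrsf9 and Tnfsf8 each rose. Tnfrsf4 encodes OX40, which prolongs the survival of activated T cells. Its only probe, A_55_P2125491, was -1.49, -1.48 and -1.64 in the MRL mice and 0.05, 0.13 and 0.13 in the LPR mice. Each group was tight and the groups were clearly apart. The rise was 1.64 (SE 0.10), or 3.11-fold (limma, adjusted p = 0.000114).

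Tnfrsf9 encodes CD137, a receptor induced on activated T cells. Both of its probes were above background on 0 of 3 MRL arrays and 3 of 3 LPR arrays. A_55_P2831060 was -3.48, -3.46 and -3.25 in LPR 1 to 3 and rose by at least 5.88-fold (limma, adjusted p = 2.52e-05). A_55_P2082180, which lay 1044 bases away, was -5.25, -4.62 and -4.89 in the LPR mice and rose by at least 2.02-fold (adjusted p = 0.0273). The latter call was lost in 5 of the 6 fits that left out 1 mouse, with adjusted p up to 0.0820, and held without MRL 3 (adjusted p = 0.00121), whose signal of -5.93 was the highest of the MRL mice.

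Tnfsf8 encodes CD30 ligand, which is found on activated T cells and other leukocytes. Its probe A_66_P127104 was -3.00, -3.03 and -3.27 in the MRL mice and -1.61, -1.96 and -1.39 in the LPR mice. The groups were apart, and LPR 2 was the lowest LPR mouse. The rise was 1.45 (SE 0.17), or 2.73-fold (limma, adjusted p = 0.00218). The second probe, A_51_P484371, was above background on 0 of 3 MRL arrays and was -3.16, -3.62 and -2.95 in the LPR mice, a rise of at least 6.55-fold (adjusted p = 4.07e-05).

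Icos A_52_P682768 was the only probe above the 10-fold limit of the study's gene lists once signals under the detection limit were set to it. In the fit to the signals as measured, where 1.11% of all tested probes were at least 10-fold higher, Cd86 A_51_P174723 and Tnfsf8 A_51_P484371 were above 10-fold too, but no MRL array detected them and their bounds lay below it. The size of a rise from a dim signal depended on the background correction. With normexp correction, which adds an offset, 0 of the 18 probes reached 10-fold, and the rise of Icos A_52_P682768 was 4.17-fold, that of Cd28 A_55_P1979491 was 4.76-fold and that of the brightest Cd86 probe was 2.87-fold. Tnfrsf4, which was bright in both groups, gave 2.71-fold. These 4 probes still passed, with adjusted p from 6.90e-07 to 9.53e-06. Icos A_55_P2006625 at 1.23-fold (adjusted p = 0.0558), Tnfrsf9 A_55_P2082180 at 1.18-fold (0.165) and Icosl A_55_P2747083 at 1.11-fold (0.234) lost their calls.

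Receptors and ligands were further compared within each array, as the difference of the log2 signals of the brightest tested probe of each gene. The level of such a difference has no meaning between probes. Its change describes how the 2 chosen probes moved under this background correction, and does not show that the genes moved unequally. The Cd80 probe used here is its brightest, which gave no rise. Icos minus Icosl was -1.22, -1.01 and -1.31 in the MRL mice and 2.50, 1.88 and 2.37 in the LPR mice, a difference of 3.43. Cd86 minus Cd80 was -3.91, -3.59 and -3.10 against -0.90, -1.11 and -0.83, a difference of 2.59. In both pairs no MRL mouse reached the lowest LPR mouse. Cd28 minus Icos was 0.97, 0.82 and 0.98 against 0.14, 0.06 and 0.77, a difference of -0.60 in which LPR 3 lay close to the MRL mice. All 3 pairs gave p = 0.1 in the exact two-sided permutation test, which is the smallest p that 3 against 3 mice can give, and 0.1 after Benjamini-Hochberg adjustment over the 3 pairs. No pair can therefore pass. With normexp correction the difference of Cd28 minus Icos was 0.19, of the opposite sign. For Cd40lg and Cd40 no difference was formed.

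**Figure D3:**
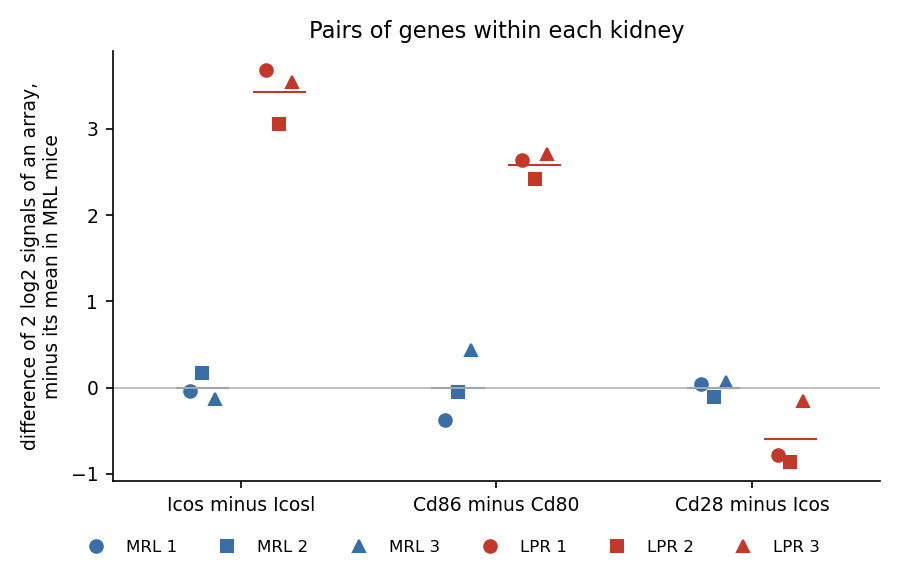
Within-array difference of 2 log2 signals, less its mean over the MRL mice (y axis), for 3 pairs of genes (x axis). Points are mice and short lines are group means. LPR mice lay above MRL mice for Icos minus Icosl and Cd86 minus Cd80, on average by 3.43 and 2.59, and below them for Cd28 minus Icos, on average by -0.60.

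Of the 4 binding partners that are not among the 10 genes, Tnfsf9 and Ctla4 were tested and neither passed. Ctla4 (A_55_P2147712), the inhibitory receptor that competes with CD28, was -6.60, -6.41 and -5.30 in the MRL mice and -5.21, -5.24 and -4.41 in the LPR mice. MRL 3 was the only MRL array above background and lay just below the lowest LPR mouse. The change was 1.15 (SE 0.38; limma, adjusted p = 0.0983), and without MRL 3 it was 1.55 (adjusted p = 0.0251). Tnfsf9 (A_55_P2010038), the ligand of CD137, was above background on all arrays, and its change of 0.57 (SE 0.30) did not pass (adjusted p = 0.254). Tnfsf4 (A_55_P2718363 and A_55_P2723679), the ligand of OX40, and Tnfrsf8 (A_51_P205334), the receptor of CD30 ligand, were above background on 0 of 6 arrays. The ligands of OX40 and CD137 were thus not tested and not called, respectively, where their receptors rose, and this contrast was itself not tested.

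Further genes of the pathway were followed through lists of costimulatory molecules, signalling proteins and induced genes. With the partners these held 39 genes, of which 34 were tested by their brightest tested probe. In total 16 were higher, against 7.12% of all 25805 tested genes, 1 was lower, against 5.47%, and 17 did not pass. The lists were chosen with earlier results of these data known, so these counts are not independent evidence. By any probe, 19 were higher, among them Il21, which was also the 1 lower gene. The share of all genes by any probe was not computed, so this count has no background beside it.

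Of the 9 other costimulatory genes tested, 6 were higher, 0 were lower and 3 did not pass, with a median change of 1.86. Tnfrsf18, the receptor GITR of activated and regulatory T cells, rose by 3.34 (limma, adjusted p = 6.28e-05). Cd48, a ligand of the SLAM family on leukocytes, rose by 2.93 (adjusted p = 0.000246). Cd27, a receptor of T and memory B cells, rose by 2.49 (adjusted p = 0.000563). Tnfrsf14, Tnfrsf25 and Tnfsf15 did not pass. A dimmer Tnfrsf14 probe, A_51_P230589, was above background on 0 of 3 MRL arrays and rose by at least 2.86-fold (adjusted p = 0.0246).

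Of the 16 signalling genes, 9 were higher, 0 were lower and 7 did not pass, with a median of 0.67. Among the larger rises were those of Lck, the kinase that starts signalling at CD4, CD8 and CD28 (3.53; limma, adjusted p = 1.34e-05), and of Vav1, an exchange factor of haematopoietic cells (3.09; adjusted p = 0.00180). Both are largely restricted to leukocytes. Of the adaptors of the receptor family, Traf1, which is induced in activated lymphocytes, rose by 2.52 (adjusted p = 3.97e-05), and Traf2, Traf3, Traf5 and Traf6 did not pass, with changes from -0.15 to 0.22. The genes of the NF-kappaB subunits Nfkb1, Nfkb2, Rel and Relb passed with rises of 0.61 to 0.82. Prkcq did not pass on its brightest probe, while A_52_P259508, above background on 0 of 3 MRL arrays, rose by at least 1.35-fold (adjusted p = 0.0128).

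Of the 7 induced genes tested, 1 was higher, 1 was lower and 5 did not pass, with a median of 0.45. Ifng, the cytokine of type 1 helper and cytotoxic T cells, was above background on 0 of 3 MRL arrays and rose by at least 16.4-fold (limma, adjusted p = 0.000277). Il21, the cytokine of follicular helper T cells, gave opposite calls on its probes. The brighter A_55_P2744827 was lower in LPR mice by -0.90 (adjusted p = 0.0258), while A_55_P2106121 was above background on 0 of 3 MRL arrays and rose by at least 4.39-fold (adjusted p = 8.56e-05). Il2, whose release CD28 supports, differed by 0.03 (adjusted p = 0.901). Its probe averaged -5.62 in MRL mice and -5.59 in LPR mice, near the detection limits of -6.41 to -5.88. A second Il2 probe was above background on 0 of 6 arrays. An absence of change in Il2 can therefore not be read from these signals. Lck, Tnfrsf18, Ifng and Il21 are among the genes that the study itself showed for these arrays.

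**Figure D4:**
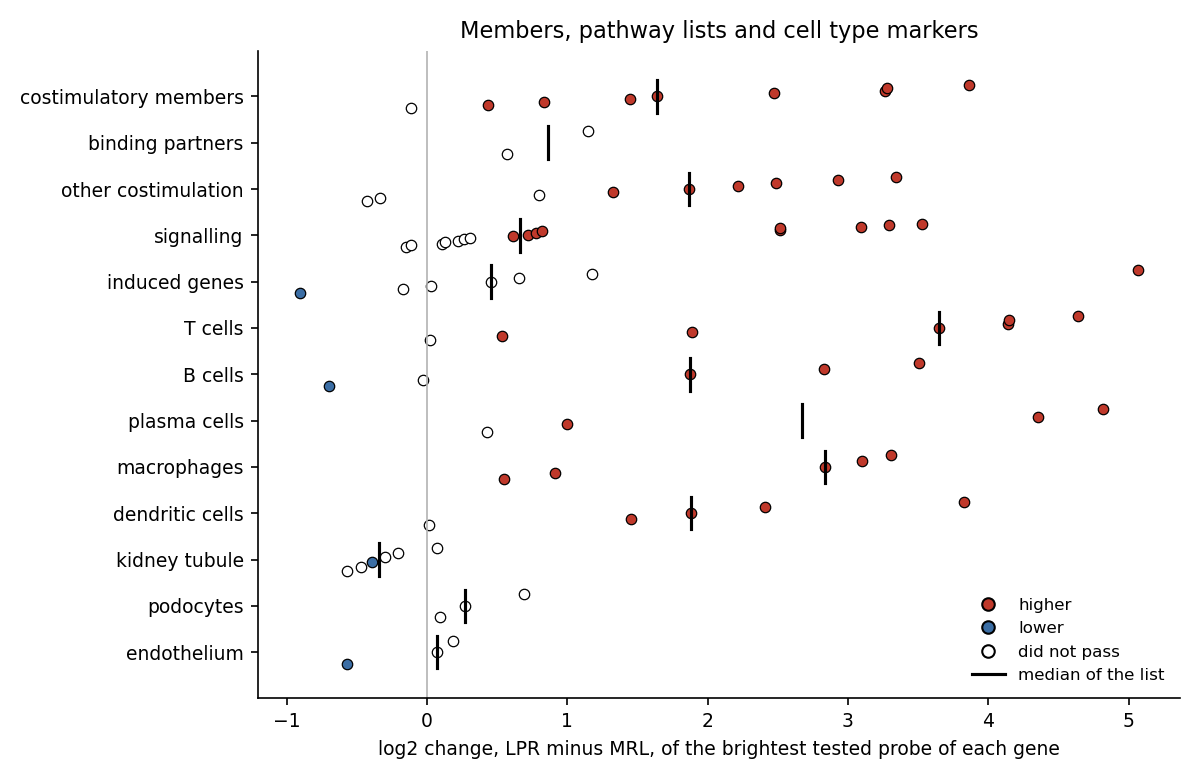
log2 change, LPR minus MRL (x axis), of the brightest tested probe of each gene for the costimulatory genes, the pathway lists and the cell type markers (y axis). Red points passed with a rise, blue points passed with a fall, open points did not pass, and black bars are list medians. The median was 3.65 for the T cell markers and -0.34 for the tubule markers, and Il21 is the blue point among the induced genes.

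Most markers of the cells that carry these molecules were higher as well, but not all. Of the 7 T cell markers, 6 were higher, with a median of 3.65, and their summed level was 1.36 to 1.60 in MRL mice and 3.46 to 3.69 in LPR mice. Cd3d rose by 4.14, Cd3g by 4.15 and Cd2 by 4.64, whereas Cd8a differed by 0.02 and did not pass. Cd4 rose by only 0.53 on its brightest probe (limma, adjusted p = 0.0356). Of its dimmer probes, A_52_P383089 did not pass (adjusted p = 0.347). A_51_P236573, above background on 0 of 3 MRL arrays, rose by at least 1.57-fold (adjusted p = 0.000401). The 5 macrophage markers were all higher, with a median of 2.84 and a summed level of 3.87 to 4.19 against 5.13 to 5.32. Cd68 rose 8.59-fold, Aif1 by 3.31 and Adgre1 by 2.84 on the log2 scale. The Adgre1 call was lost under 8 of 21 alternatives, among them fits that left out 1 mouse. Of the 5 dendritic cell markers, 4 were higher, with a median of 1.88 and a summed level of -1.35 to -1.28 against 1.27 to 1.61. Itgax rose by 3.82 and Clec9a by 2.41. The call of Xcr1, another of the 4, was lost under 11 of 20 alternatives, among them the detection limit in place of lower signals. Flt3 was higher by 1.46 on its brightest probe and lower by -0.69 on A_66_P126155 (adjusted p = 0.0494). The dendritic cell marker that did not pass, Zbtb46, differed by 0.02 on its brightest probe (limma, adjusted p = 0.930).

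Of the 5 B cell markers, 3 were higher, 1 was lower and 1 did not pass, with a median of 1.88 and a summed level of 0.59 to 0.69 against 2.08 to 2.45. Cd79b rose by 2.83. Ms4a1 was lower by -0.70 on its brightest probe A_66_P120649, a call lost under 15 of 21 alternatives and in every fit without 1 mouse, and higher by 4.99 on A_55_P2802151. The marker that did not pass, Cd22, was higher by 3.47 on a dimmer probe, A_51_P448140. Of the 4 plasma cell markers 3 were higher, with Mzb1 at 4.35, and the summed levels of all 4 overlapped at 4.89 to 5.41 against 5.15 to 5.99. This sum lay close to the level of Xbp1, its brightest marker, which averaged 5.05 in MRL mice and 5.48 in LPR mice. Xbp1 was the marker that did not pass (limma, adjusted p = 0.284). On the brightest probes of the other 3, Mzb1, Sdc1 and Tnfrsf17, the groups did not overlap. None of the 3 podocyte markers passed, although the brightest probe of Nphs1 had an unadjusted p of 0.0136 in limma. Of the 3 endothelial markers Kdr was lower by -0.57, a call lost under 11 of 21 alternatives. Of the 6 tubule markers Lrp2 was lower by -0.39, a call lost under 14 of 21 and in every fit without 1 mouse, the tubule sum being 9.21 to 9.28 in MRL mice and 8.90 to 8.99 in LPR mice. Of all these markers, Xcr1 of dendritic cells and Tnfrsf17 of plasma cells were above background on 0 of 3 MRL arrays, and every other one was detected in both groups. The T cell, macrophage, dendritic cell and B cell sums thus all separated the groups in the same direction as Cd28, Icos and Cd86. Their part in the changes of the costimulatory genes was not tested.

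The LPR mice differed among themselves in a like way on many of the probes. LPR 2 had the lowest value of the LPR mice on 12 of the 18 tested probes, LPR 1 on 4 and LPR 3 on 2. For the 14 called probes it was the lowest on 10, against 39% of all probes that were higher. Among the MRL mice the lowest values were more evenly divided, with 5, 5 and 8 of the 18. Without LPR 2, 12 of the 18 probes were higher, against 14 with it, and over all tested probes 2370 were higher, against 2606. The arrays of MRL 1, MRL 2, MRL 3 and LPR 1 lay in slide row 1, and those of LPR 2 and LPR 3 in slide row 2. Within row 1 the difference of LPR 1 from the MRL mean on the 14 called probes ran from 0.45 for Icosl A_55_P2747083 to 4.13 for Icos A_52_P682768. Its sign was fixed beforehand, since the groups did not overlap on any called probe. It also rests on 1 LPR mouse, so it is no test of the slide row. With the row in the fit 11 probes were higher, and with the column 12. Over all tested probes 1458 were higher with the row and 2075 with the column, against 2606 with neither.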

How the data were processed

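Per the labels, RNA of each kidney was labelled with Cy3 from a low-input kit. The methods name Trizol and the labels an RNeasy kit for its isolation. The authors deposited the intensity of each spot as Agilent Feature Extraction 12.0.3.1 gave it, after background subtraction and with no normalization between arrays. The series table they deposited holds the ratio of this intensity to the 75th percentile of its array taken with the control spots, which gives divisors of 625 to 829. Here control spots and outlier spots (73 to 90 per array) were dropped, log2 intensities were shifted by the 75th percentile, and spots of a probe were averaged. Probes flagged above background in 3 or more mice were tested with limma 3.58.1 in R 4.3.3 and Benjamini-Hochberg adjustment over 39924 probes (threshold 0.05). The number of arrays limits the precision. Replicate numbers did not pair the mice, with correlations of 0.12, 0.02 and 0.01 between the deviations of same-numbered arrays.

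Every probe of the 10 genes and of their binding partners was named, and from each other list at most the 3 largest rises and falls among called genes. Fas was named as the mutated gene. Some genes of the lists are not reported here and remain in the counts. Dimmer probes of list genes, Traf1, the NF-kappaB genes, Cd4 and the genes of the lists that did not pass were named after their values were seen. The members and lists were chosen with earlier results of these data known. Pairs were tested by exact permutation. Alternatives covered background correction (normexp, offset 50), normalization, filters, the test, slide position, a replicate block and leaving out each mouse. The steps were tested on simulated data.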

Additional observations from a re-analysis of the deposited data

How the results depend on the processing

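Over 21 alternatives, the 18 tested probes of the 10 genes gave 372 values, of which 327 kept their direction and their side of the threshold, 35 no longer passed, 8 newly passed, all of them of Cd80, and 2 changed sign. The latter were Icosl A_52_P432647 (0.12) and the brightest Cd80 probe (0.082), both with the slide row in the fit, and neither passed. Between 8 and 15 probes were higher and 0 were lower, against 14 and 0. The count was 8 with the methods' t-test on linear values after Benjamini-Hochberg adjustment and 11 on log2 values, and 12 to 13 when 1 mouse was left out. Over all tested probes the higher calls fell as well, from 2606 in the main fit. They were 1444 with the t-test on linear values, 1736 on log2 values, and 1958 to 2370 when 1 mouse was left out. Between 6 and 9 genes had a higher probe, and 7 to 8 without 1 mouse. Icosl A_55_P2747083 lost its call under 16 of 21 alternatives and Tnfrsf9 A_55_P2082180 under 10 of 20. With the replicate number as a block 13 probes of 7 genes were higher, and over all probes 2199 were higher and 1117 lower, against 2606 and 2462. Only 2 of 6 arrays correlated best with their own number. Ctla4 passed with this block (adjusted p = 0.0141) and with the slide column (adjusted p = 0.00491). The count of higher pathway genes, 16, was 10 with the slide row and 14 to 16 without 1 mouse. The 1 lower pathway gene became 0 without a filter, with a floor, with both forms of the methods' t-test, with the slide row and with the replicate block, and 0 to 1 without 1 mouse. Over all probes, lower calls ranged from 463 with the slide row to 4448 with normexp correction. Icos minus Icosl was 1.91 with normexp correction and 3.30 to 3.61 without 1 mouse. Cd86 minus Cd80 was 1.62 with normexp correction, 1.62 with the mean of all tested probes of each gene, and 2.40 to 2.80 without 1 mouse. Cd28 minus Icos was -0.020 with the mean of probes, 0.19 with normexp correction, and -0.82 to -0.47 without 1 mouse. The cause of these shifts was not tested. The pair of Cd40lg and Cd40 could not be formed, since Cd40lg was above background on no array. Signal over background limits Cd40lg, Tnfsf4, Tnfrsf8 and the MRL values of 5 tested probes. For these 5 only a bound that depends on the background correction can be given.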
